A study of Mus musculus with 8 samples.

Results

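Spermatogonia sorted for the receptor tyrosine kinase Kit (cKit+) were compared between mice labelled PRC1dKO (dKO) and mice labelled PRC1ctrl (control), with 2 RNA-seq libraries in each group. These are 4 of the 8 libraries of the series. All were made from testes of C57BL/6 mice at postnatal day 7. The other 4 libraries come from Thy1+ spermatogonia with the same pair of genotype labels and are used only where the change in cKit+ cells is set against that in Thy1+ cells. The sample titles name neither the deleted genes, the Cre driver nor the alleles that the control mice carry. The deposited library names add Ring1 to dKO and ctrl, without alleles or a Cre driver, and their prefix differs between the control libraries. Neither says whether replicates are separate animals. The p-values then measure the spread between these libraries, which may be technical. RNA was amplified before library construction, so the counts are of amplified copies. The comparison took in every gene with enough counts, which was 13828 of the 23343 gene symbols in the deposited tables.

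Polycomb repressive complex 1 (PRC1) places a single ubiquitin on histone H2A through its RING finger ligases, Ring1 and Rnf2, and works beside PRC2, which methylates histone H3, to keep many developmental genes silent. Its variant forms are assembled around different Pcgf subunits, and its canonical forms read the PRC2 mark through Cbx proteins. In the postnatal testis, undifferentiated spermatogonia depend on factors such as Zbtb16, Sall4 and the GDNF pathway. Retinoic acid drives them to differentiate, when Kit appears at the surface, and later to enter meiosis with Stra8.

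The library totals were 10976869 and 7858587 counts in control replicates 1 and 2 and 6763908 and 6798003 counts in the dKO replicates. Between 8.42% and 12.6% of them were reads of the ribosomal RNA precursor Rn45s. The correlation of log2 CPM (counts scaled to a common library size) across genes was 0.974 between the controls, 0.956 between the dKO libraries and 0.923 to 0.937 between the groups. The first principal component, with 61.0% of the variance, separated the groups, and the second, with 25.3%, separated the dKO replicates from each other.

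Rnf2 (chr1:151469406-151500823 in mm10, minus strand) was at 143 and 122 CPM in the control libraries and at 131 and 138 CPM in the dKO libraries. The dKO values lay within the range of the controls. Its log2 fold change was 0.02 ± 0.14 (SE), with an edgeR adjusted p of 0.926. Ring1 (chr17:34020792-34024680, minus strand) was at 4.41 and 5.12 CPM in control and at 11.7 and 3.99 CPM in dKO, so that the dKO replicates lay on either side of the controls (log2 fold change 0.73 ± 0.51, edgeR adjusted p = 0.336). Counts run over the whole gene and hold reads outside any deleted stretch, so these levels check nothing about the deletion, and the groups are named here by their labels. Kit, the sorting antigen, was at 1027 and 917 CPM in control and 1035 and 991 CPM in dKO, a log2 difference of 0.06 ± 0.13. Its deposited entries hold nearly the same counts, so its level may count some reads more than once.

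Of the 13828 genes tested, 3148 (22.8%) differed between dKO and control at an adjusted p under 0.05 in edgeR's quasi-likelihood test. There were 1465 higher genes (10.6%) and 1683 lower genes (12.2%). At least 2-fold changes were more often decreases, with 806 lower against 377 higher genes. The control and dKO values did not overlap for 62.5% of the genes tested. The balance of the calls moved with the scaling, and directions given here are relative to the main (TMM) scaling, under which the median gene stood at 0.04. Library totals alone gave 908 higher and 2268 lower genes, ribosomal protein genes as the reference gave 884 and 1847, and the deposited RPKM values plus 0.5 gave 218 and 2652. The authors' RPKM denominator took in more than the listed counts in dKO: counts per unit of that denominator, set to 1 in control replicate 1, were 0.977 in control replicate 2 and 0.835 and 0.878 in the dKO libraries. Leaving out control replicate 1 lowered the number of calls to 1544, while leaving out each of the other libraries gave 2579 to 3298. A total of 1218 genes, 502 higher and 716 lower, were called with all 4 libraries and again without each of them.

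**Figure D1:**
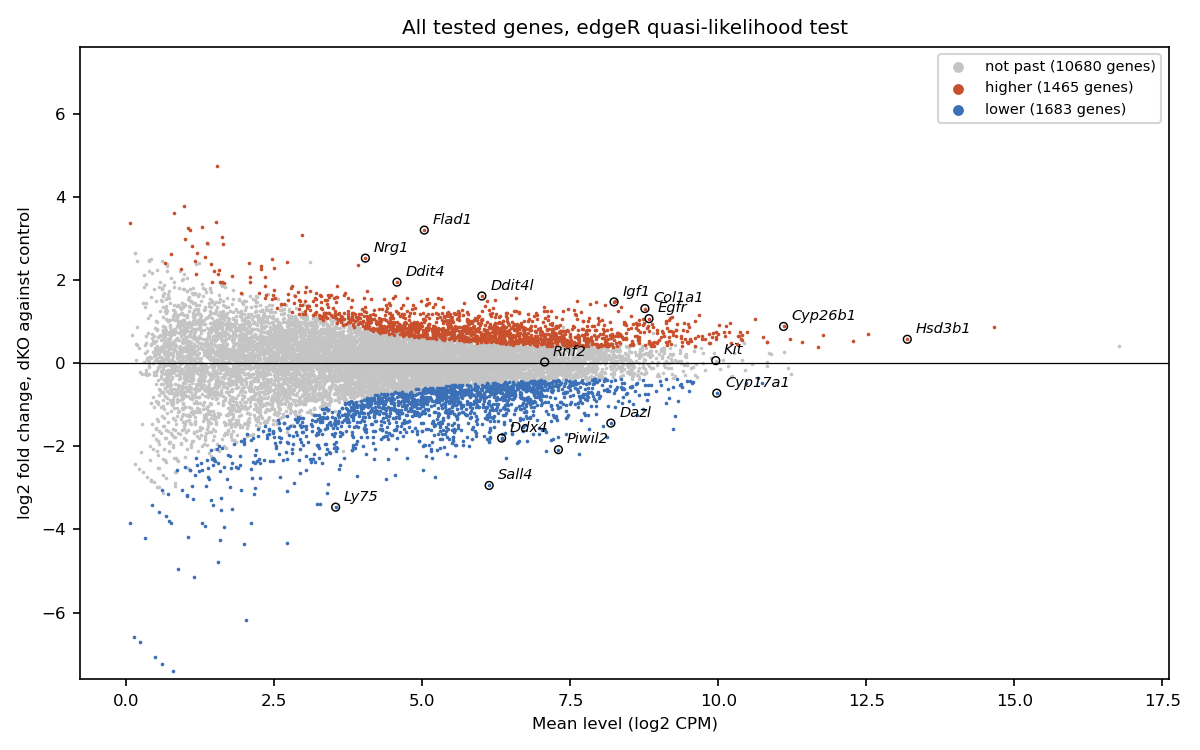
Mean level over the 4 cKit libraries (log2 CPM, horizontal axis) against the log2 fold change of dKO against control (vertical axis), with each dot a gene tested by edgeR. Blue dots are the 1683 lower genes, orange dots the 1465 higher genes and grey dots the rest, and circles mark genes named in the text; Sall4 lies at -2.94 and Rnf2 at 0.02.

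The cell type labelled was checked against marker lists. Germ cell genes were present, with Dazl, a germline RNA-binding protein, at 478 and 370 CPM in control, but transcripts of steroid-producing Leydig cells were at a higher level per length. Hsd3b1, a steroidogenic enzyme, ranked 1 among all genes by mean RPKM (reads scaled to transcript length and library size), at 1387 and 1407 RPKM in control and 1429 and 1856 RPKM in dKO. Insl3, a Leydig cell hormone, ranked 4, and Cyp17a1, which makes androgen precursors, ranked 26. Dazl ranked 413, Kit 461 and Ddx4, a germline RNA helicase, 2095. The 18 Leydig markers summed to 12760 and 15530 CPM in the control libraries and to 17940 and 20610 CPM in the dKO libraries. The libraries of both groups thus held much RNA of the interstitium beside that of germ cells.

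Marker sums of most somatic classes were higher in the dKO libraries. These sums are on the TMM scale and are not plain shares of the library totals. The 29 peritubular, myoid and stromal markers summed to 5489 and 4966 CPM in control and 10810 and 9167 CPM in dKO, and 19 of 29 rose with 0 falling. The 19 endothelial markers summed to 311 and 327 CPM in control and 589 and 596 CPM in dKO. Of the 17 tested, 7 rose while 1, the transcription factor Erg, fell. Without control replicate 1, 3 endothelial markers rose and none fell. Among Leydig markers 9 rose and 1 fell, and among the 26 tested Sertoli markers 11 rose (5 without control replicate 1) and 1 fell. Without control replicate 1 or dKO replicate 2, 2 Leydig markers fell. The marker that fell with all libraries was Cyp17a1, at 915 and 1586 CPM in control and 846 and 667 CPM in dKO; Hsd3b1 rose from 7193 and 7875 CPM to 10100 and 12290 CPM. Leaving out a library ended 3 of these calls: Hsd3b1 without dKO replicate 2 (edgeR adjusted p = 0.0661), Cyp17a1 without control replicate 2 (0.204) and Erg without control replicate 1 (0.0688). The fallen Sertoli marker was Dmrt1, which spermatogonia express too. Of 12 mast cell markers, which belong to another Kit-bearing cell type, 5 rose, among them the proteases Cpa3, Mcpt4 and Tpsb2. None of these 5 passed without control replicate 1, and 2 markers rose without dKO replicate 1. Macrophage markers gave 0 calls of 17 in edgeR, with 1 at an unadjusted p under 0.05, 0 by DESeq2 and 1 by limma-voom. Without dKO replicate 1, 6 rose; without control replicate 2, 3 rose; without dKO replicate 2, 3 fell; and without control replicate 1, 1 fell. The markers split by replicate number: their sums were 254 and 551 CPM in control and 214 and 716 CPM in dKO.

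**Figure D2:**
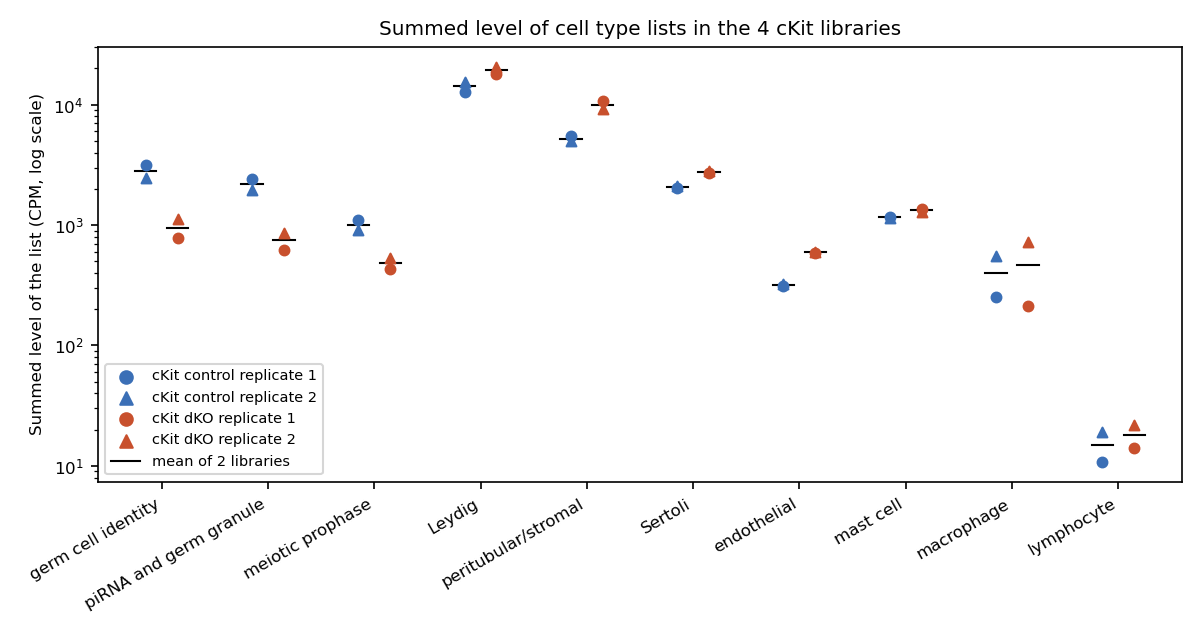
Summed level of each marker list (CPM, log scale, vertical axis) for lists of germ and somatic cell types (horizontal axis), with a point for each of the 4 libraries (blue control, orange dKO; circles replicate 1, triangles replicate 2) and black bars for the mean of 2 libraries. The sums of the germ cell identity, piRNA and meiotic lists are lower in both dKO libraries, Leydig, peritubular and endothelial sums are higher, and macrophage sums follow the replicate number.

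Germ cell genes fell together. Of the 27 tested genes of the germ cell identity list 21 fell and 0 rose, with a median log2 fold change of -1.58, beside 0.04 for all genes tested. Of the 26 tested genes of piRNA production and the germ granule 22 fell and 0 rose (median -1.68). For neither list did DESeq2 or limma-voom call a higher gene, and at an unadjusted p under 0.05 there were 0 and 1 such genes. In every other list with 0 calls by edgeR in a direction, at most 1 gene had an unadjusted p under 0.05 in that direction and DESeq2 called 0; limma-voom called 0 too, except 1 higher gene each among the macrophage markers and the X-linked multicopy and germline genes. In the union of both lists, 47 genes, 37 fell and the values between the quartiles ran from -1.87 to -1.16. In bulk RNA, fewer cells of a type and less RNA per cell cannot be told apart. The rise of somatic markers described above moved with it, and its part in the result was not tested.

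Ddx4 (chr13:112598333-112652310, minus strand) was at 144 and 105 CPM in control and at 33.5 and 37.9 CPM in dKO, -1.80 ± 0.18 in log2 fold change (edgeR adjusted p = 3.66e-05). Dazl went from 478 and 370 CPM to 142 and 169 CPM (-1.44 ± 0.16). For both, every dKO value was below every control value. Piwil2, a PIWI protein that binds piRNAs in spermatogonia, was at 271 and 235 CPM in control and at 46.8 and 72.8 CPM in dKO (-2.08 ± 0.19). Mael, another protein of the piRNA pathway, went from 216 and 164 CPM to 51.2 and 65.5 CPM; it was chosen after its values were seen. Tdrkh, a Tudor domain partner of PIWI proteins, went from 61.3 and 46.2 CPM to 9.23 and 8.75 CPM (-2.58 ± 0.24).

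Germline genes of the X chromosome took part in the decrease. In a list of X-linked multicopy and germline genes, 10 of 22 tested fell (45.45%, beside 12.2% of all genes) and 0 rose. The median was -1.65. This list shares genes with the germ cell identity list, among them Usp26, Taf7l and Nxf2, so it is in part the same result. Usp26, a ubiquitin protease, went from 277 and 208 CPM to 61.8 and 79.7 CPM, Taf7l, a germ cell form of a TFIID subunit, from 197 and 143 CPM to 39.8 and 53.6 CPM, and Nxf2, an RNA export factor, from 250 and 197 CPM to 59.6 and 64.3 CPM. The chromosome as a whole did not move this way: over its 525 tested genes the median was 0.19, and 15.4% were higher and 14.7% lower. In a list of meiotic prophase genes, 18 of 29 fell and 0 rose (median -1.13; 12 fell without control replicate 1). Syce2, of the synaptonemal complex central element, fell from 88.3 and 81.8 CPM to 25.98 and 30.4 CPM, and Tex11, an X-linked crossover factor, from 94.1 and 55.3 CPM to 21.8 and 27.3 CPM.

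**Figure D3:**
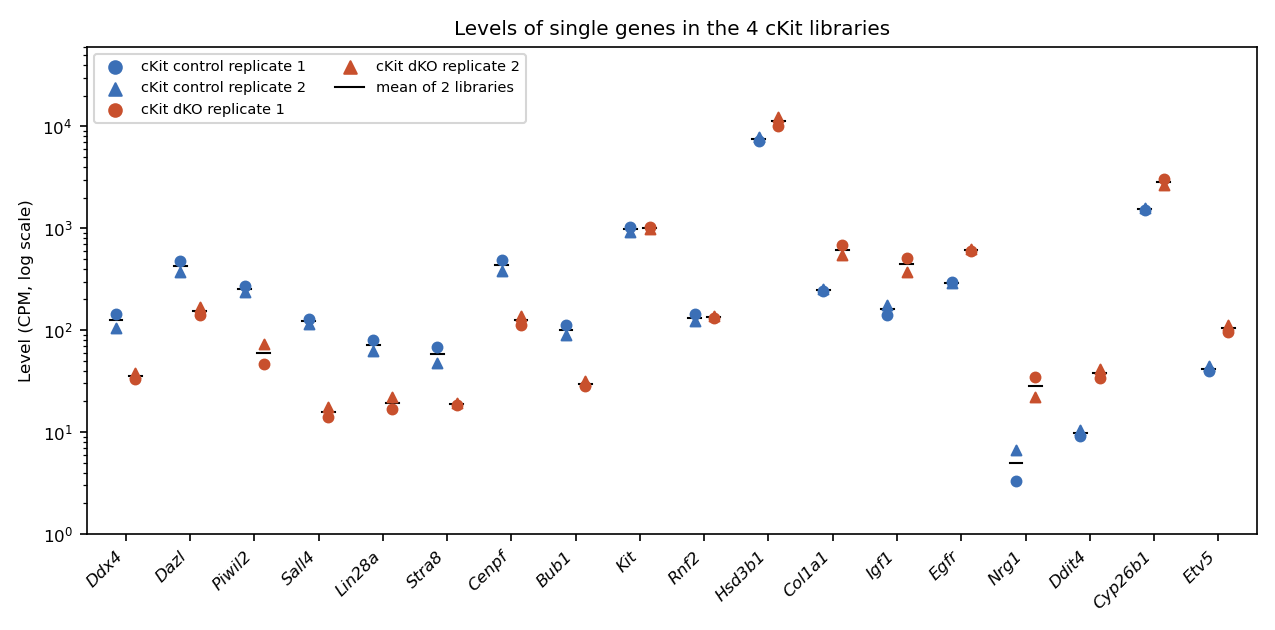
Level of 18 genes (horizontal axis) in each of the 4 cKit libraries (CPM, log scale, vertical axis; blue control, orange dKO; circles replicate 1, triangles replicate 2), with black bars for the mean of 2 libraries. Germ cell and mitotic genes on the left are lower in both dKO libraries, Kit and Rnf2 do not separate the groups, and Hsd3b1, Col1a1, Igf1, Nrg1 and others on the right are higher in both.

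Promoter sequence was set beside these values because many germline genes are known to be silenced in somatic cells through an E-box, CACGTG, at their start. RefSeq promoters (build GRCm38.p6, 250 bases before to 50 after the start) were matched to 9443 tested genes whose deposited start lay within 100 bases. CACGTG, which reads the same on both strands, was found in 10.2% of all these promoters, in 7.18% of those of higher genes and in 13.97% of those of lower genes. It was found in 10 of 21 promoters of the germ cell identity list (47.6%) and in 10 of 19 of the piRNA list (52.6%), lists that share genes. These stretches end at the base before the start; capitals mark the E-box, and they are shown for 4 of the lower germline genes above or, for Stk31, chosen after its values were seen:
Ddx4: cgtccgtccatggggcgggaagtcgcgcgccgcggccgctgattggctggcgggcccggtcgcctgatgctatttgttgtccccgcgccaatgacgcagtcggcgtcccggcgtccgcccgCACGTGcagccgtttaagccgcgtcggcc
Taf7l: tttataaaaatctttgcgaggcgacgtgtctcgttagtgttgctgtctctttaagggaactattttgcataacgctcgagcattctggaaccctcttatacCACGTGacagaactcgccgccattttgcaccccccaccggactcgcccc
Nxf2: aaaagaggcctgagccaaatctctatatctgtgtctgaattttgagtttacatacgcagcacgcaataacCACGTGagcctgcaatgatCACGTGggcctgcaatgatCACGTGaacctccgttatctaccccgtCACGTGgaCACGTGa
Stk31: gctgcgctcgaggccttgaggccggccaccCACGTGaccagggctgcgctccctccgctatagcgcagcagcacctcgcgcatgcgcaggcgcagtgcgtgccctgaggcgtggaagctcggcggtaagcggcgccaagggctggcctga

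The stretches are chr13:112652311-112652460 for Ddx4, chrX:134476491-134476640 for Taf7l and chrX:134964755-134964904 for Nxf2, all on the minus strand, and chr6:49395454-49395603 on the plus strand for Stk31, a germ granule protein with a Tudor domain. Nxf2 holds 5 copies in its 150 bases, the nearest with its last base 2 bases before the start, and the others hold 1 each. Medians with and without a match lay close together. In the germ cell identity list the median was -1.71 with a match (9 of 10 fell) and -1.51 without (9 of 11 fell). In the piRNA list it was -1.65 with a match (10 of 10 fell) and -1.48 without (5 of 9 fell). A match is a description of the letters and no evidence of binding.

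**Figure D4:**
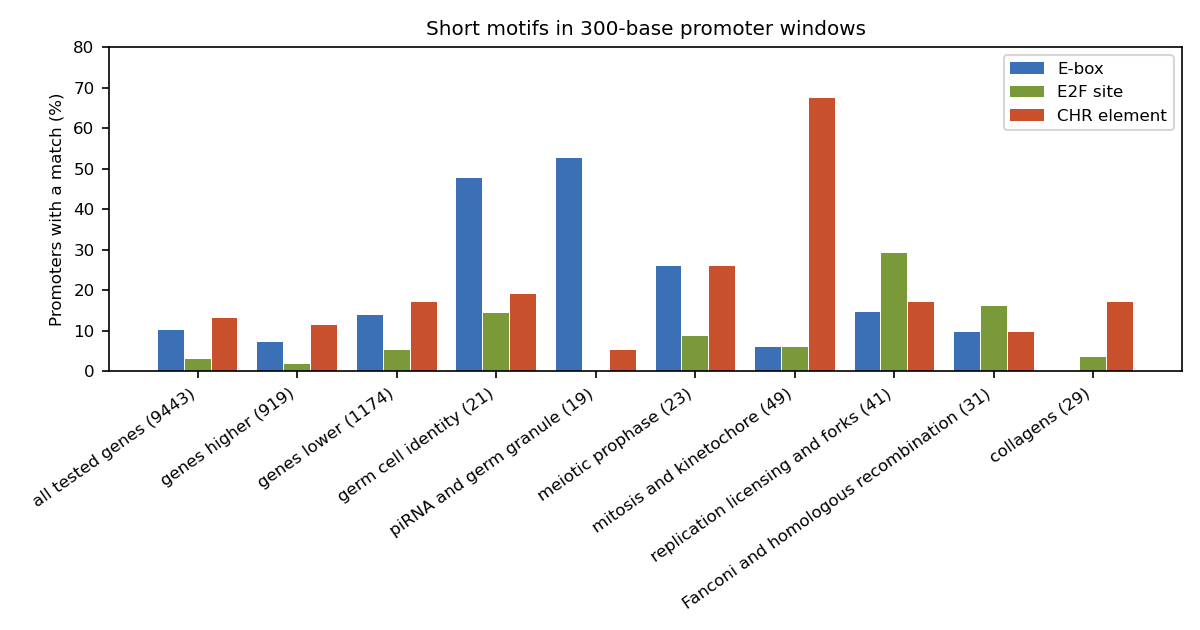
Percentage of 300-base promoter windows that hold a motif (vertical axis) for all tested genes, higher and lower genes and gene lists, with the number of promoters in brackets (horizontal axis; blue E-box, green E2F site, orange CHR element). E-boxes were most frequent in the germ cell identity (47.6%) and piRNA (52.6%) lists and CHR elements in the mitosis list (67.3%), against 10.2% and 13.1% of all promoters.

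To ask which genes fell by more than germ cell RNA did, the fit was repeated with the germ cell identity and piRNA genes as the scaling reference, which moved the median of all genes from 0.04 to 1.51. The lists of lower genes described here turned to medians above 0 on that scale, 0.45 for mitosis and 0.62 for replication. Those of X-linked germline (-0.18) and differentiating spermatogonia genes (-0.03) did not. The medians of the reference lists, germ cell identity (-0.14) and piRNA (-0.22), are held near 0 by the scaling itself, so nothing is read from them. The X-linked list shares genes with the reference, among them Usp26, Taf7l and Nxf2. Its median is thus in part held near 0 too, and nothing is read from it. On that scale 43 of 13828 genes (0.311%) were lower in dKO and 78.9% were higher. Of the 43 genes, 2 belong to the reference lists themselves, Tdrkh and Morc1, and 23 have a mean log2 CPM under 3. Sall4 (chr2:168748332-168767201, minus strand), a zinc finger factor that spermatogonia need, was among the rest. It was at 129 and 115 CPM in control and at 13.9 and 17.8 CPM in dKO, a change of -2.94 ± 0.19 on the log2 scale (edgeR adjusted p = 2.11e-06) and of -1.49 on the germ cell scale (edgeR adjusted p = 6.31e-05). The surface lectin receptor Ly75 went from 24.9 and 14.6 CPM to 1.88 and 1.69 CPM (-3.47 ± 0.42, and -1.97 on the germ cell scale). Fsd1, Grb7, Zkscan2 and Aifm3 had levels of 13.97 to 18.7 CPM in the control libraries and 1.07 to 2.61 CPM in the dKO libraries. Prtg, a surface protein of the immunoglobulin family, went from 60.9 and 65.1 CPM to 7.83 and 10.9 CPM, and Frmpd1 from 32.6 and 37.8 CPM to 3.91 and 6.29 CPM. Morc1, which helps silence transposons in germ cells, went from 40.6 and 36.9 CPM to 5.01 and 6.91 CPM. The imprinted gene Ascl2 fell as well, from 22.4 and 26.8 CPM to 3.91 and 3.53 CPM, and by 1.26 on the germ cell scale.

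Genes of the spermatogonial stages did not all move with germ cell RNA. Of 24 tested genes of undifferentiated spermatogonia 8 fell (33.3%, beside 12.2% of all genes) and 3 rose (12.5%, beside 10.6%), and their median was -0.18. The share that rose is near that of all genes. The RNA-binding protein Lin28a fell from 79.7 and 61.9 CPM to 16.8 and 22.1 CPM (-1.87 ± 0.21) and the transcription factor Zbtb16 from 57.1 and 60.5 CPM to 23.6 and 27.2 CPM (-1.21 ± 0.19). The 3 that rose, Etv5, Spry4 and Dusp6, are induced by GDNF and FGF signalling in spermatogonia and by growth factors in other cells. Etv5 was at 39.3 and 44.2 CPM in control and at 95.2 and 113 CPM in dKO (1.32 ± 0.17). Dusp6 was at 28.9 and 30.4 CPM in control and at 34.1 and 67.8 CPM in dKO, and its call was lost without dKO replicate 2 (edgeR adjusted p = 0.593), control replicate 1 (0.101) or control replicate 2 (0.0538). Gfra1, the GDNF co-receptor, stayed under 4 CPM in all 4 libraries and did not pass. Gdnf itself, secreted by Sertoli and peritubular cells, rose from 37.6 and 42.5 CPM to 85.5 and 77.7 CPM, and in the list of GDNF response genes 8 of 22 rose and 2 fell, with 5 rising without control replicate 1.

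Of 17 tested genes of differentiating spermatogonia 10 fell (58.8%) and 2 rose (11.8%, near the 10.6% of all genes), with a median of -1.47. Stra8, induced by retinoic acid before meiosis, fell from 68.8 and 47.8 CPM to 18.3 and 19.5 CPM (-1.63 ± 0.22, edgeR adjusted p = 0.000205). Dnmt3b, a de novo DNA methyltransferase, fell from 143 and 111 CPM to 34.3 and 44.4 CPM, and Crabp1, which binds retinoic acid in the cytoplasm, from 88.1 and 88.2 CPM to 17.2 and 32.4 CPM. The pair that rose were Ccnd3, a D-type cyclin, and Cyp26b1, which degrades retinoic acid and is made by somatic cells of the testis. Ccnd3 did not pass without control replicate 1 (edgeR adjusted p = 0.118) or control replicate 2 (0.0574). Cyp26b1 was the more abundant, at 1510 and 1590 CPM in control and at 3050 and 2655 CPM in dKO (0.88 ± 0.13). The summed level of the list was higher in dKO, at 5087 and 4762 CPM against 4241 and 4057 CPM in control, with Cyp26b1 and Kit its most abundant members. Kit, as shown above, did not separate the groups.

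The medians of cell division lists lay between those of germ cell genes and that of all genes. In the mitosis and kinetochore list 48 of 66 fell and 0 rose (median -1.02), in the replication list 34 of 54 fell and 0 rose (-0.84), in the cohesin and condensin list 15 of 24 fell and 1 rose (-0.67), and in the Fanconi and homologous recombination list 21 of 42 fell and 0 rose (-0.76). Without control replicate 1 the last count was 10, and the cohesin and condensin count was 10. Cenpf, a kinetochore protein of dividing cells, went from 484 and 378 CPM to 111 and 139 CPM (-1.78 ± 0.16). Espl1, the separase that cleaves cohesin, went from 88.6 and 76.4 CPM to 20.97 and 27.01 CPM (-1.78 ± 0.19). Bub3, a spindle checkpoint protein that did not pass, was at 62.5 and 57.8 CPM in control and 56.97 and 60.01 CPM in dKO. For replication, Clspn, the checkpoint mediator claspin, went from 112 and 99.9 CPM to 27.6 and 31.8 CPM, and Lig1, the ligase that joins Okazaki fragments, from 211 and 218 CPM to 86.6 and 91.6 CPM. For repair, Brca1 went from 157 and 122 CPM to 47.3 and 38.5 CPM and Fancd2 from 65.3 and 41.6 CPM to 11.3 and 11.5 CPM. In each of these 6 falls the groups were apart, as they were for 62.5% of all genes tested. These 6 genes were picked among called members, so nothing is read from this.

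The promoters of the mitosis list hold the CHR element, through which the DREAM complex is known to restrain mitotic genes. TTTGAA or TTCGAA, searched on both strands, was found in 33 of its 49 matched promoters (67.3%) and in 13.1% of all promoters. The E2F site of replication genes, TTTCCCGC or TTTGGCGC on either strand, was found in 12 of 41 promoters of the replication list (29.3%) and in 3.0% of all. Promoter stretches of 3 lower mitotic genes that end at the base before the start show the CHR element in capitals, as TTCAAA on the printed strand in Kntc1:
Espl1: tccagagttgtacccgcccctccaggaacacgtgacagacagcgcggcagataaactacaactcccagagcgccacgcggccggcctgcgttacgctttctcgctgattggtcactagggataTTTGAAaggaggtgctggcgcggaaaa
Cdc20: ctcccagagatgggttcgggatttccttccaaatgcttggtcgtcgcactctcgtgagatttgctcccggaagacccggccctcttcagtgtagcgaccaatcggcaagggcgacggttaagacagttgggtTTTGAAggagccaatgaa
Kntc1: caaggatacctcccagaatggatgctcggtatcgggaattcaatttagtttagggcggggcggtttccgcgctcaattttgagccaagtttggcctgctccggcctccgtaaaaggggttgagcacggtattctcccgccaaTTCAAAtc

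The stretches are chr15:102296143-102296292 on the plus strand for Espl1, chr4:118437344-118437493 on the minus strand for Cdc20 and chr5:123749576-123749725 on the plus strand for Kntc1. The last base of the element lies 22, 13 and 3 bases before the start. Cdc20, an activator of the anaphase-promoting complex, fell from 30.8 and 41.3 CPM to 15.96 and 21.8 CPM (-0.93 ± 0.25), and Kntc1, a kinetochore protein, from 87.0 and 63.1 CPM to 33.2 and 29.9 CPM (-1.25 ± 0.20). Both were chosen after their values were seen, and Cdc20 did not pass without control replicate 2 (edgeR adjusted p = 0.113). The median over mitotic genes was -0.93 with a match (24 of 33 fell) and -1.40 without (11 of 16 fell).

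Regulators of the entry into the cell cycle moved in both directions. In the G1 list 31.0% fell, beside 12.2% of all genes, and the share that rose, 10.3%, was near the 10.6% of all genes. Among CDK inhibitors and p53 targets 25% rose and 7.14% fell. Of 29 tested G1 cyclins, CDKs and RB family genes 9 fell and 3 rose; without control replicate 1, 4 fell and 2 rose. Ccnd1, a D-type cyclin, fell from 144 and 141 CPM to 65.0 and 69.4 CPM and its partner kinase Cdk6 from 49.7 and 46.5 CPM to 23.0 and 17.5 CPM. Rb1, the retinoblastoma protein, fell and its relative Rbl2 rose, from 77.7 and 73.1 CPM to 125 and 119 CPM. Among CDK inhibitors and p53 targets 7 of 28 rose and 2 fell, the latter 2 not without control replicate 1. Cdkn1c, an imprinted CDK inhibitor, rose from 21.4 and 20.8 CPM to 48.5 and 39.6 CPM (1.06 ± 0.21). Cdkn2a, a textbook Polycomb target, did not reach the level needed for the test: it had 21 counts over the control libraries and 0 over the dKO libraries, at least 4.56-fold lower if a group at 0 is set to a floor of 3 counts.

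Polycomb genes themselves fell more often than they rose. Of 36 PRC1 subunits and partners 10 fell (27.8%, beside 12.2% of all genes) and 2 rose (median -0.32), with 1 rising when either control library or dKO replicate 1 was left out. Pcgf5, which defines a variant form of PRC1, fell from 73.4 and 56.4 CPM to 14.2 and 17.8 CPM (-2.02 ± 0.22). Cbx2, a reader of the PRC2 mark, fell from 69.1 and 71.9 CPM to 14.9 and 24.4 CPM, and Scml2, an X-linked germline Polycomb protein, from 159 and 117 CPM to 37.6 and 48.7 CPM. Bcor, which belongs to a variant complex, rose from 178 and 147 CPM to 245 and 287 CPM (0.71 ± 0.15). Of 12 PRC2 genes 5 fell (41.7%) and 1 rose. The core subunit Eed fell from 58.7 and 48.2 CPM to 28.6 and 31.8 CPM and the accessory subunit Jarid2 from 183 and 148 CPM to 90.3 and 90.1 CPM. Without control replicate 1, 2 of the PRC2 genes fell and none rose (3 fell without dKO replicate 2), and Eed was among those lost (edgeR adjusted p = 0.119). Of 12 H2A deubiquitinase genes 3 fell (25%) and 1 rose; none passed without control replicate 1, and 1 fell without dKO replicate 2.

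In the DNA methylation list 4 genes fell and 4 rose of 18, 22.2% in each direction, beside 12.2% lower and 10.6% higher of all genes. The maintenance methyltransferase Dnmt1 fell from 385 and 370 CPM to 180 and 191 CPM (-1.03 ± 0.13) and its cofactor Uhrf1 from 102 and 79.1 CPM to 42.3 and 43.9 CPM. Tet1, which oxidises methylcytosine, rose from 118 and 159 CPM to 318 and 241 CPM (1.02 ± 0.17). Among H3K9 methylation and HP1 genes 9 of 21 fell and 0 rose, and 3 fell without control replicate 1. Suv39h2, a histone methyltransferase of germ cells, fell from 122.9 and 94.9 CPM to 31.5 and 30.7 CPM. In the list of imprinted genes 14 of 28 rose and 1 fell (median 0.66). Igf2 rose from 493 and 540 CPM to 1104 and 965 CPM and its neighbour H19, a non-coding RNA, from 122 and 166 CPM to 311 and 299 CPM. Dlk1, an imprinted gene that is also a Leydig marker here, rose from 82.7 and 81.0 CPM to 195 and 193 CPM, and the non-coding RNA Meg3 of the same cluster from 167 and 206 CPM to 556 and 387 CPM.

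Developmental genes that PRC1 is known to silence in many tissues were in part too low to test. Of 39 Hox genes 16 could be tested, and 4 rose (25%, beside 10.6% of all genes) with 0 falling (median 0.78; 2 rose without either control library). Hoxd9 rose from 33.1 and 42.9 CPM to 67.8 and 66.0 CPM and Hoxc10 from 11.9 and 6.86 CPM to 20.03 and 21.03 CPM. Hoxd9 did not pass without control replicate 1 (edgeR adjusted p = 0.0854) and Hoxc10 without control replicate 2 (0.179). Of 103 somatic developmental transcription factors 51 could be tested, of which 16 rose (31.4%) and 6 fell (11.8%, beside 12.2% of all genes), with a median of 0.49, and 10 rose and 2 fell without control replicate 1. Gata4, a factor of Sertoli and Leydig cells, rose from 254 and 271 CPM to 466 and 474 CPM (0.84 ± 0.13). Lhx9, a factor of the gonadal interstitium, rose from 16.8 and 17.8 CPM to 50.7 and 50.2 CPM, and Wt1, of Sertoli cells, from 8.56 and 7.11 CPM to 16.4 and 14.4 CPM. Wt1 did not pass without control replicate 1 (edgeR adjusted p = 0.140), control replicate 2 (0.228) or dKO replicate 1 (0.106). Clustered protocadherins, cell adhesion proteins encoded in tandem arrays, rose in 15 of 44 tested cases and fell in 0 (median 0.84; 6 rose without control replicate 1 and 8 without control replicate 2). Their near-identical sequences make the counts of single members uncertain. Pcdhga10 was at 14.3 and 12.7 CPM in control and at 38.7 and 41.4 CPM in dKO.

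Extracellular matrix genes rose, and some of them are also counted among the stromal markers. Of 38 collagens 22 rose and 0 fell (median 0.77), of 33 small leucine-rich proteoglycans and partners 15 rose and 1 fell (0.80), and of 26 matrix proteases and inhibitors 12 rose and 1 fell (0.69; 6 rose without control replicate 1). Col1a1, a chain of type I collagen, went from 243 and 255 CPM to 684 and 550 CPM (1.31 ± 0.14). Bgn, the proteoglycan biglycan, went from 673 and 748 CPM to 1438 and 1253 CPM, and Adamts5, a protease that cleaves aggrecan, from 164 and 133 CPM to 493 and 296 CPM. Lama5, a laminin chain of basement membranes, fell from 46.8 and 37.4 CPM to 12.4 and 14.7 CPM. The stromal list itself holds the collagen genes Col1a1, Col1a2 and Col3a1 and the proteoglycan genes Dcn and Lum. The rise of its sum is thus in part that of the same genes, and nothing is read from their moving together. The part of stromal RNA in the result was not tested.

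Members of growth factor pathways moved in both directions. Of all genes 10.6% were higher and 12.2% lower. The ErbB shares, 18.2% higher and 9.09% lower of 11 genes, are near these, so nothing is read from them. In the BMP and TGF-beta list 27.8% rose and 2.78% fell, and in the FOXO-linked list 41.4% and 3.45%. In the list of ErbB ligands and receptors 2 of 11 rose and 1 fell, and 3 rose without control replicate 1 or either dKO library. Nrg1, the ErbB ligand neuregulin (chr8:31818028-31918203, minus strand), rose from 3.31 and 6.74 CPM to 34.4 and 22.1 CPM, with a log2 fold change of 2.52 ± 0.36 (adjusted p = 0.000270 by edgeR). The receptor Egfr rose from 300 and 287 CPM to 599 and 631 CPM, while Erbb2 fell from 54.8 and 44.4 CPM to 31.2 and 31.3 CPM, a call lost without control replicate 1 (edgeR adjusted p = 0.283). Inhba, the activin subunit, rose from 105 and 102 CPM to 329 and 251 CPM (1.49 ± 0.15), and in the BMP and TGF-beta list 10 of 36 rose (6 without control replicate 1) and 1 fell (4 without dKO replicate 2, with library totals or with ribosomal protein scaling). Of 29 FOXO-linked and insulin signalling genes 12 rose and 1 fell; without control replicate 1, 7 rose. Igf1 rose from 142 and 178 CPM to 514 and 373 CPM (1.47 ± 0.17), the insulin receptor substrate Irs1 from 119 and 148 CPM to 246 and 240 CPM, and the binding protein Igfbp4 from 163 and 222 CPM to 351 and 409 CPM. Foxo1, a factor that insulin signalling keeps out of the nucleus, was at 266 and 231 CPM in control and 213 and 217 CPM in dKO and did not pass. Hedgehog targets rose in part: Ptch1, the receptor, went from 480 and 378 CPM to 925 and 728 CPM. Gli1, an activator, went from 40.8 and 35.9 CPM to 85.9 and 72.1 CPM. Gli3, which acts as a repressor, fell from 166 and 142 CPM to 80.1 and 66.6 CPM. Inhba, Igf1, Ptch1 and Gli1 are also members of the peritubular, myoid and stromal list above. The part of stromal RNA in their rise was not tested.

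Ddit4 and Ddit4l, related inhibitors of the growth kinase complex mTORC1, both rose. Ddit4 was at 9.15 and 10.6 CPM in control and at 34.0 and 41.9 CPM in dKO (1.94 ± 0.25, edgeR adjusted p = 0.000121), and Ddit4l at 33.7 and 29.6 CPM and at 107 and 87.2 CPM. The kinase Mtor fell from 242 and 214 CPM to 113 and 115 CPM (-1.01 ± 0.14). The list of 30 mTORC1 regulators was otherwise near the background of all genes, with 4 rising and 3 falling, and 2 rising and 1 falling without control replicate 1. Immediate early genes rose in 16 of 30 cases with 0 falling (median 0.63), and 9 rose without control replicate 1 and again without dKO replicate 2. Egr1 was at 4152 and 4901 CPM in control and at 6459 and 8161 CPM in dKO (0.69 ± 0.14). Of 22 chaperone genes 3 rose (13.6%, beside 10.6% of all genes), among them stress-induced Hspa1a, and 6 fell (27.3%, beside 12.2%). Among those that fell were Hsp90aa1 and the germ cell chaperone Hspa4l, which went from 70.8 and 49.5 CPM to 11.7 and 16.4 CPM. The chaperone counts were 2 and 4 without control replicate 1, 1 and 5 without control replicate 2 and 3 and 3 without dKO replicate 1.

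Lists of metabolism and basic cell functions differed in their shares of called genes. Of 76 oxidative phosphorylation genes 2 rose and 3 fell (median -0.05; 0 and 0 without control replicate 1, 1 and 1 without control replicate 2), of 83 cytosolic ribosomal protein genes 6 rose and 4 fell (0.16; 0 and 1 without control replicate 1, 12 and 2 without control replicate 2, 4 and 1 without dKO replicate 1, 3 and 4 without dKO replicate 2), and of 28 cholesterol synthesis genes 1 rose and 2 fell (-0.11). The shares in these 3 lists were below those of all genes, 10.6% higher and 12.2% lower. Without dKO replicate 2, 5 cholesterol synthesis genes fell, without dKO replicate 1 none did, and 1 did without either control library. Of 30 glycolysis genes 7 rose (23.3%) and 2 fell; 3 rose without control replicate 1 and 4 without control replicate 2, and 4 with library totals. Of 27 replication-dependent histone genes 3 rose (11.1%, near the share of all genes) and 5 fell (18.5%). Their median was 0.01, and -0.43 without control replicate 1. Atp5b, a subunit of ATP synthase, was at 1762 and 1811 CPM in control and 1786 and 1872 CPM in dKO. Rpl39l, a germ cell paralog among the ribosomal protein genes, fell from 22.2 and 13.5 CPM to 4.38 and 3.84 CPM. Nucleoporins fell in 14 of 25 cases (56.0%) with 0 rising (median -0.63), led by Nup205, of the inner ring, from 154 and 142 CPM to 62.3 and 53.4 CPM, and Nup210, a membrane nucleoporin, from 103 and 80.5 CPM to 20.03 and 34.2 CPM. Of 34 proteasome genes 7 fell (20.6%) and 0 rose, and 4 fell without control replicate 1.

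**Figure D5:**
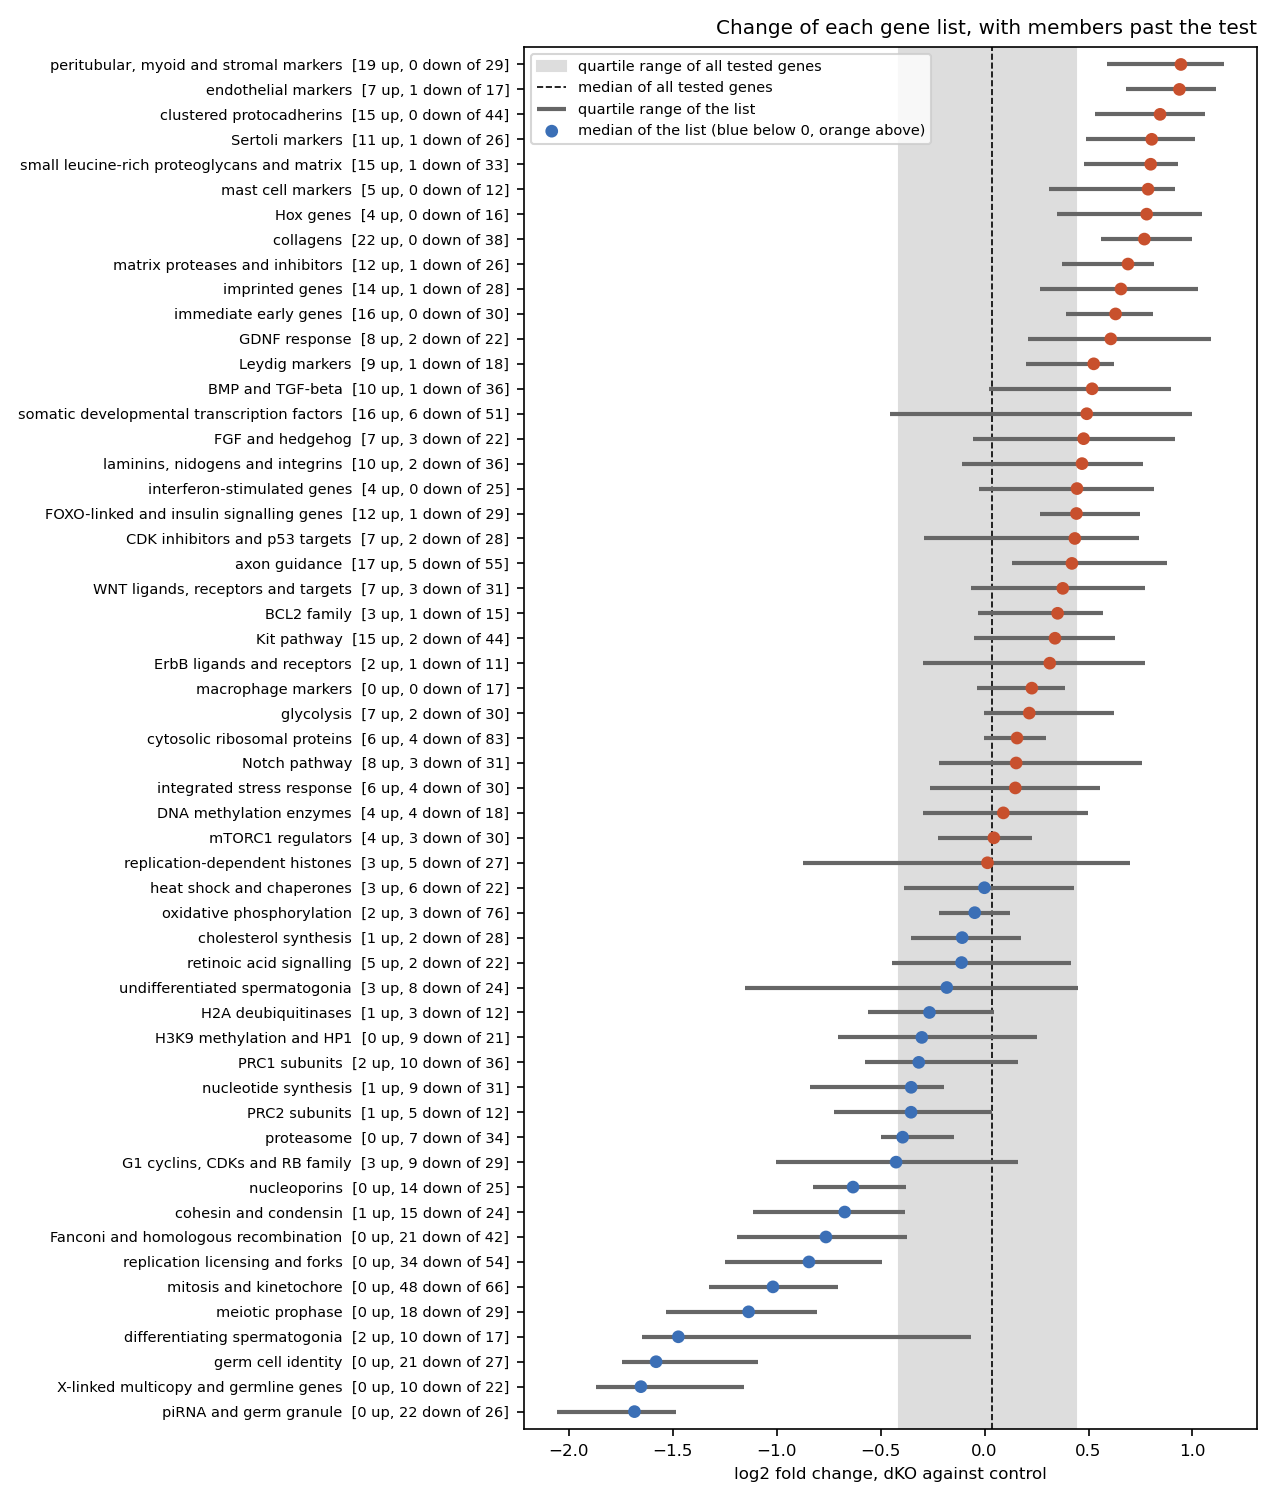
Median log2 fold change of dKO against control (horizontal axis; dots, blue below 0 and orange above) for each gene list with 10 or more tested members (vertical axis), with grey bars from the lower to the upper quartile of the list and brackets for the members past the test. The grey band and dashed line show the quartile range and the median of all genes tested (0.04); piRNA (-1.68), X-linked germline (-1.65) and germ cell identity (-1.58) lists lie lowest and peritubular and stromal (0.94) and endothelial (0.94) markers highest.

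Signalling lists rose in part. In the Kit pathway list 34.1% rose and 4.55% fell, beside 10.6% and 12.2% of all genes. In the Kit pathway list 15 of 44 genes rose and 2 fell (median 0.34), and 9 rose and 1 fell without control replicate 1, 10 rose and 1 fell without dKO replicate 1, and 4 fell without dKO replicate 2. Kitl, the ligand of Kit, made by Sertoli cells, rose from 64.4 and 68.5 CPM to 106 and 104 CPM. The adaptor Gab2 rose from 304 and 277 CPM to 558 and 452 CPM (0.80 ± 0.14), and the feedback inhibitor Spry2 from 33.1 and 26.3 CPM to 58.2 and 60.6 CPM. Pik3cb, a catalytic subunit of PI3-kinase, fell from 55.9 and 61.9 CPM to 26.9 and 25.02 CPM. Kit itself did not pass (0.06 ± 0.13).

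Axon guidance genes, which also steer other migrating cells, rose in 17 of 55 cases (30.9%) and fell in 5 (9.09%), with a median of 0.42. Of all genes 10.6% were higher and 12.2% lower. The secreted semaphorin Sema3c rose from 61.5 and 56.1 CPM to 163 and 115 CPM (1.24 ± 0.18) and its receptor Nrp1 from 80.9 and 85.6 CPM to 162 and 149 CPM. Sema4d, a membrane semaphorin, fell from 83.9 and 75.7 CPM to 28.96 and 36.2 CPM. In the WNT list 7 of 31 rose (22.6%) and 3 fell (9.68%), and in the Notch list 25.8% rose and 9.68% fell. The falling shares of these lists were below that of all genes. Sfrp1, a secreted WNT antagonist, rose from 821 and 898 CPM to 1539 and 1365 CPM, while Tcf7, a transcription factor of the pathway, fell from 149 and 137 CPM to 56.4 and 87.6 CPM. In the Notch list 8 of 31 rose and 3 fell, and 4 rose without either control library, with 1 falling without control replicate 1 and 2 without control replicate 2. Without dKO replicate 1, 6 rose and 1 fell. Hey1, a Notch target, fell from 20.3 and 23.6 CPM to 7.98 and 9.06 CPM. Interferon-stimulated genes rose in 4 of 25 cases, with 1 passing without control replicate 1 and 2 without control replicate 2, and 0 fell by edgeR, DESeq2 or limma-voom, also at an unadjusted p under 0.05.

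In the retinoic acid list 5 of 22 rose and 2 fell (median -0.11), and 3 rose when control replicate 1, control replicate 2 or dKO replicate 1 was left out, while 4 fell without dKO replicate 2. Beside Cyp26b1, Dhrs3, which reduces retinaldehyde, rose from 85.5 and 76.1 CPM to 141 and 146 CPM. The falling share of the list, 9.09%, was below the 12.2% of all genes, and its rising share was 22.7%, beside 10.6%. The pair that fell, Stra8 and Crabp1, are germ cell genes described above. Chemokine Cxcl12, counted in the GDNF list, rose from 38.9 and 39.1 CPM to 91.7 and 76.1 CPM. In nucleotide synthesis 9 of 31 fell (29.0%) and 1 rose (3.23%). Cad, which starts pyrimidine synthesis, fell from 222 and 199 CPM to 84.7 and 85.95 CPM (-1.30 ± 0.14). Rrm1, a ribonucleotide reductase subunit, went from 234 and 192 CPM to 103 and 120 CPM.

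Among genes in no list, those of largest rise included Crispld1, a secreted protein, at 5.17 and 4.74 CPM in control and at 30.8 and 20.1 CPM in dKO (2.35 ± 0.32). Trp63, a relative of p53, went from 7.88 and 2.12 CPM to 21.8 and 15.7 CPM (1.86 ± 0.46), and Fmo1, a drug-metabolising oxygenase, reached 31.6 and 20.4 CPM (1.74 ± 0.34). Among the most abundant higher genes, the nuclear non-coding RNA Malat1 went from 15650 and 20640 CPM to 39690 and 26700 CPM, and Sparc, a matrix protein, from 2328 and 2989 CPM to 3897 and 4655 CPM. Slc27a2, a fatty acid transporter, was among the genes of largest fall, from 17.3 and 13.7 CPM to 2.82 and 3.07 CPM (-2.39 ± 0.39).

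Some genes were found in 1 group only. There were 23 genes at 0 counts in both control libraries with at least 3 counts in each dKO library, and 145 genes at 0 in both dKO libraries with at least 3 counts in each control library. The control libraries are deeper, and the part of depth in these counts was not tested. The top gene of each kind by fold, picked after the values were seen, was Atp6v1g3, a proton pump subunit, with 0 and 0 counts in control against 3 and 35 in dKO (at least 19.4-fold higher with the same floor of 3 counts for a group), and Nlrp4f, of an oocyte gene family, with 34 and 18 counts against 0 and 0 (at least 11.3-fold lower).

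The dKO replicates differed from each other beyond counting error over the genes at large, as the second principal component and the chi-square over degrees of freedom of 10.4 show. The 8 genes of widest gap, among those with mean log2 CPM of 5 or more, are given here. Flad1, which makes the cofactor FAD, was at 115 CPM in dKO replicate 1 and 4.60 CPM in dKO replicate 2, beside 5.93 and 7.11 CPM in control, and without dKO replicate 1 it did not pass (edgeR adjusted p = 0.543). The macrophage lysozyme Lyz2 was at 28.8 and 233.6 CPM in the dKO replicates and at 50.4 and 152 CPM in the controls. Csf1r, a macrophage receptor, was at 26.5 and 73.8 CPM, and Hmox1, the haem oxygenase, at 35.4 and 146.9 CPM. Nr4a2, an immediate early gene, was at 112 and 320 CPM. Gm10471, Ccrl2 and Lcp1 complete the 8; Gm10471 was higher in dKO replicate 1 and the other pair in dKO replicate 2. The calls of Gm10471 and Ccrl2 were lost without the replicate in which they were high (edgeR adjusted p = 0.199 and 0.592).

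The same contrast in Thy1+ cells served as a reference for the cKit+ changes. The difference of the dKO effects, cKit minus Thy1, passed an edgeR interaction test over all 8 libraries for 883 of 14907 genes (5.92%), 278 more positive and 605 more negative in cKit. Leaving out each library in turn gave 200 to 1239 genes. The split by direction was not stable: it was 466 and 493 without cKit dKO replicate 1, 546 and 693 without cKit dKO replicate 2, 434 and 475 without cKit control replicate 2 and 172 and 966 with library totals. Germ cell genes were among the more negative: the difference was -1.50 ± 0.23 for Ddx4 (edgeR adjusted p = 0.00194) and -1.33 ± 0.20 for Dazl. For Sall4 it was -1.37 ± 0.20 (edgeR adjusted p = 0.00168), with a log2 fold change of -1.57 in Thy1. For Lin28a the difference of -0.64 did not pass. Among higher genes, the difference was 2.72 for Ddit4 and 1.52 for Col1a1, while that of Nrg1, at 1.58, did not pass.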

How the data were processed

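RNA of cKit+ spermatogonia was purified, amplified to double-stranded cDNA with the NuGEN Ovation system and made into Nextera XT libraries, per the labels' protocols. Alignment used STAR 2.4.2a and the mm10 build, per the submitters' processing notes. The counting tool and its strand setting are not given in the sources used here. Each deposited table lists 26099 entries under 23343 symbols with whole-number read counts, not normalized, and RPKM values that the authors computed, per the file headers. Counts were summed per symbol, and 2060 symbols have several entries. Of these, 48 have top entries whose counts differ by at most 1%, so reads may be held more than once.

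The test was edgeR 4.0.16 in R 4.3.3 on the 4 cKit libraries: filterByExpr by group, TMM scaling, glmQLFit and glmQLFTest (two-sided), Benjamini-Hochberg adjustment over 13828 genes and a threshold of 0.05. Residual degrees of freedom were 2. The interaction with Thy1 was fitted on all 8 libraries. CPM values use TMM-scaled library sizes. Alternatives used limma 3.58.1, DESeq2 1.42.0, other scalings and filters, and log2 of the deposited RPKM plus 0.5 or 0.1. Replicates spread more than counting error, with chi-square over degrees of freedom of 13.4 in control and 10.4 in dKO. Reads have no molecular identifiers, and floors speak of counting error alone. On simulated counts the test was checked for the recovery of known changes, set evenly in both directions in a small part of the genes at a fixed dispersion. An uneven balance of changes was not simulated, so the check does not bear on the scaling. Same-numbered replicates were not paired in the fit, since the labels do not tie them.

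The comparison and the 60 gene lists were chosen with earlier results of these data known, and lists are described by counts and medians with no set test. Named genes were 14 fixed genes, the 15 most raised and 15 most lowered genes and the 6 most abundant called genes of each direction with groups apart, up to 4 called members of each list in each direction (mean log2 CPM of at least 3), the top member of a list that did not pass, and the 8 genes that differ most between the dKO libraries. Others are said to have been chosen after their values were seen.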

Additional observations from a re-analysis of the deposited data

Results flagged for a closer look

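Of the 133 tested genes named in the report, 78 had a dKO effect that differed between cKit+ and Thy1+ cells in the edgeR interaction test over 8 libraries (adjusted p under 0.05), beside 5.92% of all genes. Most of the named genes were picked for a called or extreme change in cKit+ cells, which by itself raises this share, so nothing is read from it. The values here are the log2 fold change in cKit minus that in Thy1. Leaving out single libraries took the number of all genes passing this test from 883 down to as few as 200, so single entries are less settled than the groups. Of the 78 genes, 52 were more negative in cKit and 26 more positive.

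Germ cell and meiotic genes were more negative in cKit. The difference was -1.50 for Ddx4, -1.33 for Dazl, -1.80 for Usp26, -1.74 for Taf7l, -1.08 for Nxf2, -1.70 for Stk31, -1.39 for Mael, -1.43 for Piwil2 and -2.43 for Tdrkh. It was -1.69 for Morc1, -1.46 for Syce2, -1.68 for Tex11, -1.40 for Stra8, -1.46 for Dnmt3b, -1.35 for Crabp1, -1.28 for Dmrt1 and -1.44 for Rpl39l. Among genes that fell by more than germ cell RNA, it was -1.37 for Sall4, -2.72 for Ly75, -2.05 for Fsd1, -2.23 for Grb7, -2.63 for Zkscan2, -2.49 for Aifm3, -1.93 for Frmpd1 and -1.89 for Prtg.

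Cell division genes followed, with -1.50 for Cenpf, -1.48 for Espl1, -1.0 for Kntc1, -1.67 for Clspn, -0.81 for Lig1, -1.57 for Brca1, -1.37 for Fancd2, -1.04 for Ccnd1 and -1.09 for Cdk6. Chromatin genes gave -1.52 for Pcgf5, -1.14 for Cbx2, -1.35 for Scml2, -0.93 for Jarid2, -0.81 for Eed, -0.97 for Dnmt1, -0.97 for Uhrf1 and -1.20 for Suv39h2. The others were Nup205 at -0.89, Nup210 at -1.24, Mtor at -0.75, Hsp90aa1 at -0.66, Hspa4l at -1.58, Lama5 at -1.37, Cad at -1.28, Pik3cb at -1.06, Sema4d at -1.16 and Slc27a2 at -2.1.

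Among the more positive, matrix genes gave 1.52 for Col1a1, 1.02 for Bgn and 1.24 for Adamts5. Imprinted genes gave 0.86 for Igf2, 1.07 for H19, 1.09 for Dlk1 and 1.40 for Meg3. Growth factor and signalling genes gave 1.12 for Igf1, 1.03 for Igfbp4, 1.20 for Inhba, 0.89 for Etv5, 0.87 for Gli1, 2.72 for Ddit4 and 1.19 for Ddit4l. Tet1 was at 0.82, Lhx9 at 0.95 and Pcdhga10 at 1.48. The difference was 0.85 for Sema3c, 0.58 for Nrp1, 0.69 for Sfrp1, 0.98 for Cxcl12, 2.23 for Crispld1, 1.95 for Fmo1, 0.8 for Malat1 and 0.8 for Sparc. Flad1, at 4.42, was high in dKO replicate 1 alone.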

How the results depend on the processing

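The 3148 calls became 10947 with germ cell gene scaling and 610 when a fold of 1.5 was tested, and 1544 to 3298 when each cKit library was left out. The 609 called members over all lists became 1183 with germ cell gene scaling and 385 to 633 when each library was left out. The 883 interaction calls became 200 to 1239 when each library was left out. The other settings gave counts within 1.5 times the reported ones. With the replicate block, a fit with the replicate number as a term, 3695 genes were called, and 924 in the interaction. The deviations of same-numbered libraries from their group means correlated at 0.0249 over all genes. This single value cannot speak for parts of the genes, such as the macrophage markers, whose sums split by replicate number.

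Of the 133 tested genes named, none with a call in the main fit or the other fit changed direction with library totals, RLE, upper quartile or ribosomal protein scaling. Genes called in neither fit, such as Rnf2, were not counted, and those near 0 can change sign with the scaling. With germ cell gene scaling, whose median gene stood 1.47 higher, values above 0 were found for Ccnd1 (0.38), Cdc20 (0.50), Cdk6 (0.25), Cyp17a1 (0.74), Dazl (0.03), Dnmt1 (0.44), Eed (0.65), Erbb2 (0.82), Erg (0.18) and Gli3 (0.43). The same held for Hsp90aa1 (0.52), Jarid2 (0.61), Kntc1 (0.25), Lig1 (0.20), Mtor (0.47), Nup205 (0.14), Rb1 (0.31), Uhrf1 (0.41), Zbtb16 (0.24), Bub3 (1.43), Foxo1 (1.27), Cad (0.18), Hey1 (0.09), Pik3cb (0.29), Rrm1 (0.54), Sema4d (0.16) and Tcf7 (0.45). When each library was left out, Flad1 ran from -0.50 (without dKO replicate 1) to 4.14, and without dKO replicate 2 Hmox1 and Lyz2 gave the lowest values of their ranges, -1.32 to 0.73 and -1.80 to 1.35. DESeq2 lost 5 of the named calls, limma on RPKM plus 0.5 lost 29, the fold test 43 and the use of the highest entry per symbol 12. The cause was not tested. The 2 libraries a group limit the precision of every value.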
